A study of Mus musculus with 8 samples.

Results

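The 10 genes described here encode the NF-κB subunits (Nfkb1, Nfkb2, Rel, Rela and Relb), the IκB proteins Nfkbia, Nfkbib, Nfkbie and Nfkbiz, and the deubiquitinase A20 (Tnfaip3). They were found by symbol among the 23084 genes of the deposited table, and each had 1 row. Myeloid cells sorted from spleen as CD11b+Ly6C+ (monocytic) or CD11b+Ly6G+ (granulocytic) were RNA-sequenced from wt mice and from LmnaMyeKO mice. This gave 4 groups of 2 samples. All 8 samples came from C57BL/6 mice aged 6 to 8 weeks. In LmnaMyeKO mice a floxed Lmna, the gene of lamin A/C, is deleted by Cre under the Lyz2 (LysM) promoter, which acts in monocytes, macrophages and neutrophils. The marker entry of the labels reads CD11b+Ly6C+ for all 8 samples, and the groups above follow the sample titles. Whether the samples were pooled from several mice is not given in the sources used here. The paper does not state whether the mice of the RNA-seq samples bore tumours. In several of its other experiments such cells were sorted from tumour-bearing mice.

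NF-κB factors are dimers that wait in the cytoplasm of resting cells, bound to IκB proteins. Toll-like receptors, cytokine receptors and other sensors of danger activate the IKK kinases, which mark IκB for destruction and free the dimers to enter the nucleus. Genes for several IκB proteins and for A20 are themselves targets of NF-κB, so that the response limits itself. In monocytes and neutrophils the pathway drives cytokine and chemokine genes and supports survival.

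The table gives 1 value per gene that is not a comparison, the authors' mean of counts divided by size factors, referred to here as the mean signal. Its low values are sums of whole counts over 8 libraries. The weight of a library is what 1 of its counts adds to the mean. The weights were derived from these same low values, and the number of libraries was the one that matched best. All 28 sums of a pair from 8 such weights were found among the values, some of them by construction. Of the genes with a mean signal under 0.4, 1223 of 1223 were whole-count combinations of these weights within a tolerance of 2e-06. They include the genes used to derive the weights. The tolerance covers 0.202% of that range. The 8 libraries match the number of samples, so that the mean spans both genotypes and both cell types. The levels below describe the splenic myeloid samples of the study as a whole. They do not separate wt from LmnaMyeKO cells or Ly6C+ from Ly6G+ cells, and they carry no spread between replicates and no test. The size factor was 1.91 for 1 library and between 0.796 and 1.05 for the other 7, and which sample each belongs to was not analysed here. The paper gives a range of sequenced reads per sample, but not the reads of each sample. Total counts per sample behind the mean signal are unknown.

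Sequences at the start of the members are shown first, because the κB site is the DNA element that NF-κB dimers read and several of these genes carry it close to their start. RefSeq promoter windows of 300 bases (250 before and 50 from a transcript start, GRCm38.p6, the mm10 assembly) were at hand for 7 members, 10 windows in all. Nfkb1, Relb and Nfkbiz had no entry. The 10-base κB consensus was searched on both strands, and overlapping matches were counted as 1 place. It occurred at 9 places in 5 of 7 members. Each line gives 30 bases on the strand of the gene, 5′ to 3′, with the matching bases in capitals.
Nfkbia, chr12:55492657-55492686, minus strand: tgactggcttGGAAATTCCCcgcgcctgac
Tnfaip3, chr10:19015516-19015545, minus strand: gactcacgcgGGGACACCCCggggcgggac
Tnfaip3, chr10:19015403-19015432, minus strand: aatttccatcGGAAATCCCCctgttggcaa
Nfkbie, chr17:45555584-45555613, plus strand: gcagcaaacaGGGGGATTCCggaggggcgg
Rel, chr11:23771042-23771071, minus strand: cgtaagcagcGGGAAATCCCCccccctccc
Nfkb2, chr19:46304688-46304717, plus strand: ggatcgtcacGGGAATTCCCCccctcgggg
Nfkb2, chr19:46304716-46304745, plus strand: ggggccgaaaGGGGCTTTCCcggctggagc
Nfkb2, chr19:46305449-46305478, plus strand: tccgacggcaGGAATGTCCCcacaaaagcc
Nfkb2, chr19:46305695-46305724, plus strand: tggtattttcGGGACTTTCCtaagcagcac

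The match of Nfkbia, the gene of IκBα, began 29 bases before its transcript start. Tnfaip3 had matches 125 and 12 bases before one of its 2 starts and none at the other. The match of Nfkbie began 106 bases before the start and that of Rel 92 bases before it. Nfkb2, which was searched in 3 windows, held 4 of the 9 places. Matches began 39 and 11 bases before its most upstream start and 236 bases before and 10 bases after its next start. The last of these also lay in the window of the most downstream start, 225 bases before it. Rela and Nfkbib had no match to the 10-base consensus.

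**Figure D1:**
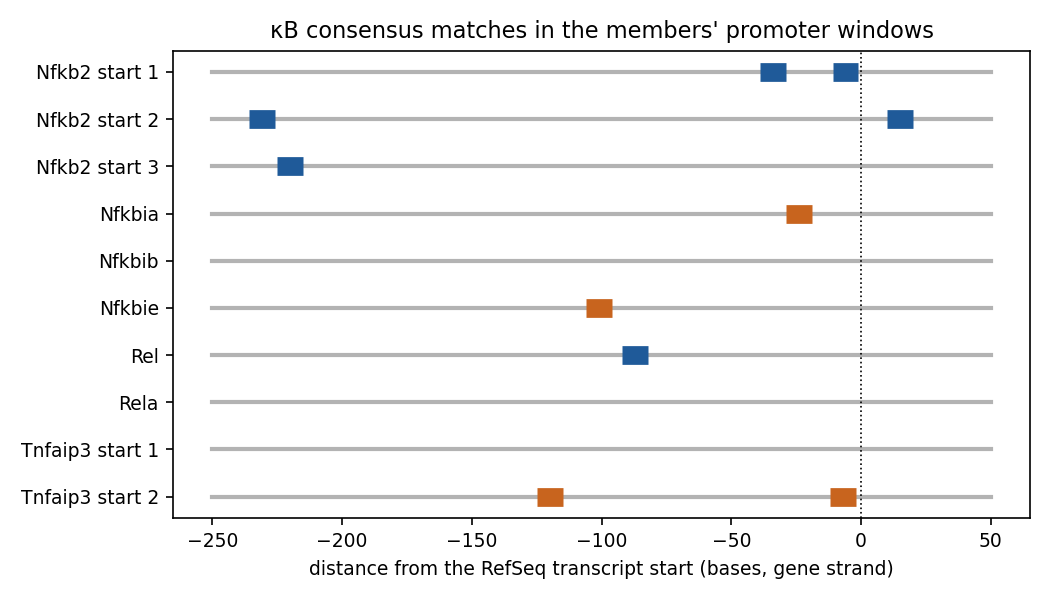
Positions of κB consensus matches (coloured blocks) along the 10 promoter windows of 7 members (grey lines), in bases from the RefSeq transcript start on the gene strand, with the start as a dotted line. Subunit genes are blue and inhibitor genes orange. Matches fall in windows of Nfkb2, Nfkbia, Nfkbie, Rel and Tnfaip3, and the windows of Nfkbib and Rela hold none.

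Over all protein-coding genes of the table with a mean signal above 0 and a promoter window, 1457 of 11890 genes (12.2%) held the 10-base consensus in at least 1 window, beside 5 of 7 members (71.4%). Counted by window, the consensus was in 1558 of 15082 windows (10.3%) and in 7 of 10 member windows. Nfkb2 has 3 overlapping or neighbouring windows, so that these windows are not independent. The 9-base core without the last base was far less selective. It was present in 4577 of 11890 genes (38.5%) and in 7 of 7 members, Rela and Nfkbib included. The members' windows ranged in GC content from 47% at the downstream start of Tnfaip3 to 75% at Rel, beside a median of 59.7% over the 15082 windows. A match is a description of letters and is no evidence of binding.

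Nfkbia was the highest member, by a wide margin per kb but only narrowly without division by length. Because long transcripts collect more reads, levels were compared between genes as mean signal per kb of the longest protein-coding transcript. Nfkbia (chr12:55489410-55492647 in mm10, minus strand, 6 exons) had a mean signal of 5163 and 3272 per kb, with a 95% interval of 3240 to 3304 for counting error only. This level was 37.1 times that of the median protein-coding gene and placed Nfkbia 453 from the top of 15697 protein-coding genes, at percentile 97.1. IκBα holds p50-RelA dimers in the cytoplasm and is rebuilt after each round of activation. Its level was 2.70 times that of Nfkb1 and 3.51 times that of Rela. The ratio to Nfkb1 ranged from 1.03 without division by length to 7.75 with the union of exons, and the ratio to Rela from 1.99 with median transcript lengths to 3.89 with the union of exons. Nfkbia made up 39.7% of the summed level per kb of the 10 members.

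Among the subunits, the p50 and RelA genes had the highest levels per kb of the longest and of the median transcript, but not under the other measures of length. Nfkb1 (chr3:135584655-135691547, minus strand, 25 exons), which encodes p105, the precursor of p50, had a mean signal of 4993 and 1213 per kb, at percentile 91.9. Rela (chr19:5637483-5648130, plus strand, 11 exons), which encodes the transactivating partner of p50 in the canonical dimer, had a mean signal of 2535 and 933 per kb, at percentile 89.4. Nfkb1 was 1.30 times as high as Rela. This order was not stable, since with the union of exons, 12061 bases for Nfkb1 against 4117 in its longest coding transcript, Nfkb1 had 414 per kb and Rela 825 per kb. Undivided by length, the mean signal of Rela was below that of Rel.

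Nfkb2, Rel and Relb were lower per kb of the longest transcript. Nfkb2 (chr19:46304320-46312385, plus strand, 22 exons) encodes p100, which is processed to p52 in the noncanonical pathway. It had a mean signal of 2126 and 553 per kb, at percentile 82.9, and Nfkb1 was 2.19 times as high. With the union of exons this turned, and Nfkb1 was 0.893 times as high as the 464 per kb of Nfkb2. Rel (chr11:23736847-23770970, minus strand, 10 exons) encodes c-Rel, a transactivating subunit prominent in lymphocytes and activated myeloid cells. It had a mean signal of 2673 and 358 per kb, at percentile 75.4. Relb (chr7:19606217-19629438, minus strand, 12 exons) encodes the partner of p52 and had a mean signal of 787 and 356 per kb, at percentile 75.3. Rel and Relb had nearly the same level per kb, with counting intervals of 353 to 363 and 347 to 365 that overlapped. Undivided by length, Rel had the third highest mean signal of the 10 and Relb the ninth. The Rel transcript is 7466 bases long, of which 23.6% is coding, while 75.8% of the 2209 bases of Relb is coding.

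Summed per kb, the canonical subunits Nfkb1, Rela and Rel reached 2504, and the noncanonical subunits Nfkb2 and Relb 909, a ratio of 2.75. The ratio was 3.54 with median transcript lengths, 2.40 with the union of exons and 3.50 without division by length. The canonical sum was thus higher under each of these 4 measures. It also covers more genes than the noncanonical sum, so that equal levels per gene would make it higher too. With the union of exons, Nfkb2 at 464 per kb was above Nfkb1 at 414 and Rel at 358, and below Rela at 825 per kb.

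The other 4 inhibitors lay well below Nfkbia. Nfkbiz (chr16:55811375-55838899, minus strand, 14 exons) encodes IκBζ, a nuclear protein that modulates transcription of a subset of inflammatory genes. It had a mean signal of 2132 and 518 per kb, at percentile 81.9. Nfkbie (chr17:45555703-45563169, plus strand, 6 exons), the gene of the cytoplasmic inhibitor IκBε, had a mean signal of 991 and 407 per kb, at percentile 77.9. Tnfaip3 (chr10:19000910-19015657, minus strand, 9 exons), whose product A20 edits ubiquitin chains on signalling adaptors and so dampens IKK activation, had a mean signal of 1410 and 319 per kb, at percentile 73.2. Nfkbib (chr7:28758251-28767512, minus strand, 7 exons), the gene of the cytoplasmic inhibitor IκBβ, was the lowest member, with a mean signal of 628 and 305 per kb, at percentile 72.3. The counting intervals of Tnfaip3 (313 to 325) and Nfkbib (296 to 313) touched. The span from the lowest to the highest member was 10.7-fold, and with the union of exons, where Tnfaip3 was the lowest, 16.4-fold.

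The 5 inhibitor genes summed to 4821 per kb and the 5 subunit genes to 3413, a ratio of 1.41. That ratio rested on Nfkbia, and was 0.454 without it. It was 1.13 with median lengths and 1.96 with the union of exons, and it turned to 0.787 without division by length.

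**Figure D2:**
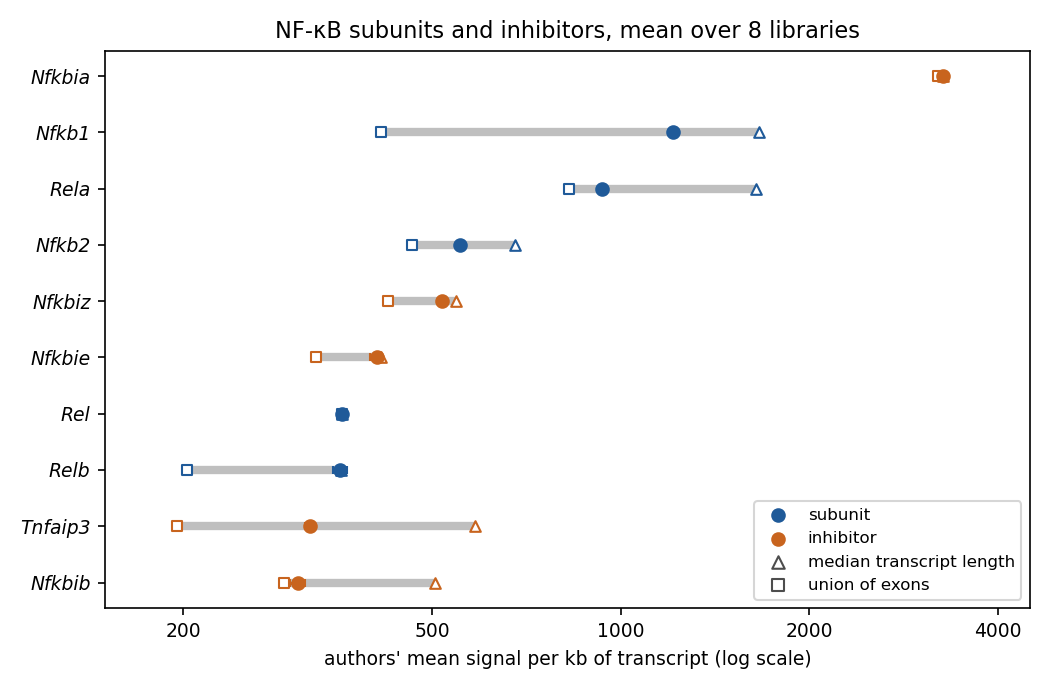
Mean signal per kb of transcript (log axis) of the 10 members as the authors' mean over 8 libraries, subunits in blue and inhibitors in orange. Filled points use the longest protein-coding transcript, with error bars for the 95% counting interval, triangles the median coding transcript, squares the union of exons, and grey bars join the lowest and highest of these. Nfkbia lies at 3207 to 3272 per kb under the 3 lengths, while the bars of most other members overlap.

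The counting error of a member's mean signal, taken at an equal level in 8 libraries, was between 0.498% for Nfkbia and 1.43% for Nfkbib. The choice of length moved most members much more. Exceptions were Nfkbia, at 3207 to 3272 per kb, and Rel, which has 1 annotated transcript and kept 358 per kb. Over the 3 lengths and the undivided signal, Nfkbia kept place 1, Nfkb1 held places 2 to 5, Rela 2 to 4, Nfkb2 3 to 6 and Nfkbiz 4 to 6. Nfkbie held places 6 to 8, Rel 3 to 9, Relb 8 to 10, Tnfaip3 5 to 10 and Nfkbib 7 to 10. The order turned with the measure of length for Nfkb1 and Rela, Nfkb2 and Nfkbiz, Nfkbie and Rel, Relb and Tnfaip3, and Tnfaip3 and Nfkbib. Rela stayed above Nfkb2, Nfkbiz above Nfkbie and Rel above Relb under all 4 measures, the last with overlapping counting intervals per kb of the longest transcript. Whether any neighbours differ beyond the spread between samples is unknown.

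All 10 members were above the median protein-coding gene, which had 88.3 per kb. Of the 10, 8 were in the top 25% (above 350 per kb) and 2, Nfkbia and Nfkb1, in the top 10% (above 999 per kb). Among only the genes with a mean signal of at least 10, these counts were 5 and 1. Relb and Rel lay just inside the top 25%, and Tnfaip3 and Nfkbib just outside it. All 10 together held 0.0929% of the summed signal of the table.

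**Figure D3:**
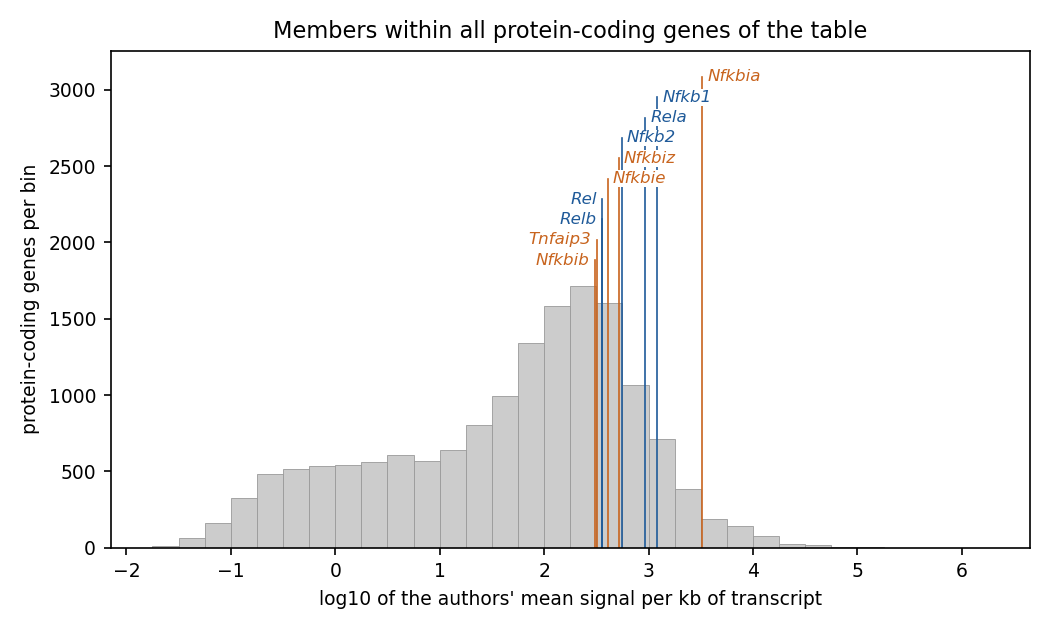
Number of protein-coding genes (grey bars) by log10 of mean signal per kb, with the 10 members as vertical lines, subunits in blue and inhibitors in orange. Line heights only separate the names. The members lie between 305 and 3272 per kb, in the upper part of the distribution.

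Some reads of 2 members could belong to neighbours. The annotated exons of Nfkb2 share 531 bases (11.6%) with the noncoding AC114539.1 and 299 bases (6.52%) with Psd, both on the opposite strand. Psd itself had a mean signal of 72.2. The exons of Nfkbib share 314 bases (14.5%) with Ccer2 and 42 bases (1.94%) with Sirt2, also on the opposite strand, and Sirt2 had a mean signal of 1597. Whether reads were counted by strand is not given in the sources used here.

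In the 3′ UTR of the longest coding transcript, the AU-rich nonamer TTATTTATT, an element known from short-lived mRNAs of the inflammatory response, was present once each in Nfkbia, Tnfaip3 and Rel. These 3 of 10 members compare with 1192 of 15485 protein-coding genes (7.70%). A longer 3′ UTR has more room for a match, and the shares were not adjusted for length. The 3′ UTRs of Rel and Tnfaip3 were longer than the median of 1063 bases over genes, and that of Nfkbia was shorter. The shorter pentamer ATTTA, which lies within the nonamer, occurred 12 times in the 5418 bases of the Rel 3′ UTR, 5 times in the 1821 bases of Tnfaip3 and 4 times in the 700 bases of Nfkb1. It occurred 4 times in the 1355 bases of Nfkbiz, 2 times in the 512 bases of Nfkbia and 1 time in the 634 bases of Nfkb2. Relb, Nfkbib, Nfkbie and Rela had none. Per kb, the 5.71 of Nfkb1 was the highest among the members, beside a median of 1.20 over genes.

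The IKK complex and related kinases spanned levels from below the lowest member to between Nfkb2 and Rela. These 6 genes ranged from 215 to 740 per kb with a median of 419, and 4 of them were in the top 25%. Ikbkb, the kinase that phosphorylates IκBα in the canonical pathway, was highest at 740 per kb. Tbk1, an IKK-related kinase of interferon induction, had 469 per kb and Map3k14, the NIK kinase of the noncanonical pathway, 421 per kb. Ikbkg, the regulatory subunit NEMO, was lowest at 215 per kb.

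The 14 receptor-proximal adaptors and kinases ranged from 98.1 to 2860 per kb with a median of 333, and 6 were in the top 25%. Myd88, the adaptor of Toll-like and IL-1 receptors, reached 2860 per kb, the level closest to that of Nfkbia in these lists of pathway regulators. Birc3, the ubiquitin ligase cIAP2, had 1224 per kb, Tab2, a subunit of the TAK1 complex, 1198 per kb, and Tab3 the lowest value, 98.1 per kb. Of the IκB proteins outside the 10 members, the nuclear Bcl3 had 1087 per kb and Nfkbid, also nuclear, 700 per kb, both above Nfkbiz, Nfkbie and Nfkbib. The 9 other negative regulators ranged from 174 to 1812 per kb with a median of 594, and 7 were in the top 25%. Tax1bp1, an adaptor of A20, was highest at 1812 per kb, followed by N4bp1 at 984 and Rnf11 at 891 per kb, and Otud7b was lowest at 174 per kb. No list was tested against the share of all genes.

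The 16 NF-κB target genes spread far more widely than the regulators, from 0.901 to 18774 per kb with a median of 229. Of the 16, 13 were above the median protein-coding gene and 6 in the top 25%. Il1b, the gene of the cytokine IL-1β, reached 18774 per kb, followed by the inflammasome sensor gene Nlrp3 at 855 and the chemokine gene Ccl5 at 795 per kb. The neutrophil chemokine gene Cxcl1 was lowest at 0.901 per kb, with a mean signal of 0.859, which is very few reads. The top of this spread was thus set by Il1b alone and its low end by a gene with hardly any reads.

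**Figure D4:**
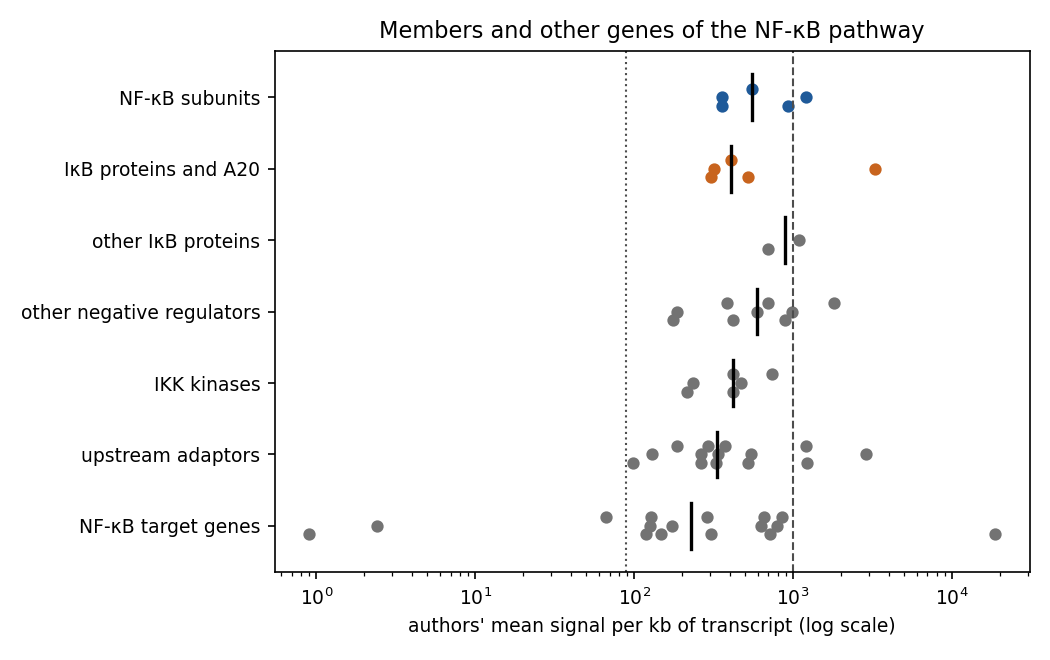
Mean signal per kb of transcript (log axis) of the 10 members (blue and orange) and of the other pathway genes (grey), 1 point per gene, with a black bar at the median of each group. The dotted line marks the median protein-coding gene at 88.3 per kb and the dashed line the top 10% at 999 per kb. The regulators span 98.1 to 3272 per kb, and the target genes 0.901 to 18774 per kb.

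The levels can come from more than one cell type. All 10 neutrophil markers were in the top 10%, from 1482 per kb up to S100a9, and Ly6g had 8346 per kb. The 8 monocyte markers ranged from 157 per kb for Cx3cr1 to 79128 per kb for Lyz2, and 4 of them were in the top 10%. These were Lyz2, Ly6c2 at 17534, Itgam, the gene of CD11b, at 11546 and Csf1r at 4714 per kb. Itgam and Lyz2 do not single out monocytes here, since both sorted populations are CD11b+ and the Lyz2 promoter also acts in neutrophils. Whether the signal of Ly6c2 and Csf1r came from monocytes alone was not tested. Fn1 at 812, F13a1 at 683, Ccr2 at 437 per kb and Cx3cr1 lay below the top 10%. The 7 macrophage markers ranged from 2084 to 13595 per kb, all in the top 10%. The 6 B cell markers ranged from 571 to 4065 per kb, with Cd79a the highest and 5 in the top 10%. The 8 T and NK cell markers ranged from 27.0 to 539 per kb. The 6 erythroid and platelet markers had a median of 55.3 per kb, with Hbb-bs at 13663 per kb. B cells and macrophages express NF-κB genes as well, and their part in the levels of the members was not tested. In bulk samples, fewer cells of a type and less RNA per cell cannot be told apart. Lmna, the targeted gene, had a mean signal of 79.5 and 25.2 per kb (percentile 34.9) over both genotypes and both cell types. This pooled level does not check the labels of single samples. The paper also reports less lamin A/C in the granulocytic than in the monocytic subset. The part of genotype and of cell type in the pooled level was not tested.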

How the data were processed

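RNA was taken from sorted splenic myeloid cells. The authors used cutadapt 1.14 for trimming, STAR 2.5.2b (2-pass, mm10) for alignment, RSEM 1.3.0 with GENCODE M12 for gene-level estimates and DESeq2 1.20.0, as the methods and the submitters' processing notes state. The deposited mean signal per gene is the authors' average of counts divided by size factors. The table also holds the authors' own comparison of LmnaMyeKO with wt CD11b+Ly6C+ cells (log2 fold changes with standard errors, test statistics, p-values, adjusted p-values and a signed fold change), which was not used here. The count test planned between genotypes was not run, since the table gives no values per sample.

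Positions and lengths came from GENCODE M21, which is on mm10 but later than M12 and held 23004 of the 23084 gene identifiers. The mean signal was divided by the length of the longest protein-coding transcript, and percentiles were taken over 15697 protein-coding genes above 0. Counting errors assume equal levels in the 8 libraries and cover counting alone. Motifs were searched in RefSeq windows and GENCODE 3′ UTRs. Percentile and motif code was tested on simulated data. All 10 members were named, with the 3 highest and the lowest gene of each pathway list and Lmna. All 8 monocyte markers and up to 4 examples of each other marker list were named. Members and lists were chosen with earlier results of these data known. Python 3.11.15, pandas 2.3.3, numpy 2.4.6 and matplotlib 3.10.9 were used.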

Additional observations from a re-analysis of the deposited data

How the results depend on the processing

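Restricting the ranking to protein-coding genes with a mean signal of at least 10 left 1 member in the top 10% (2 without this limit) and 5 in the top 25% (8 without it), since fewer low genes were ranked. With the other lengths, without division by length or ranked among all genes, 2 to 3 members were in the top 10% and 6 to 10 in the top 25%. Nfkbia made up 32.7% of the summed level with median transcript lengths, 47.8% with the union of exons and 22.0% without division by length, beside 39.7% with the longest transcript. The κB consensus was in 5 of 7 members and its 9-base core in 7. For the comparison between genotypes, the other settings (another normalization, no filter, leaving out samples, all groups in 1 fit) were not run. No paired analysis was possible because values per sample are not given in the table. Depth was not the limit for the members, whose counting error was at most 1.43%. The spread between replicates and the split by genotype and cell type are unknown here, and lengths come from an annotation release later than the one the authors used.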
